A study of Mus musculus with 34 samples.

Results

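The crush response was examined in 8 mice whose sensory neurons lack the transcription factor ATF3 (ATF3 cKO). These mice carry 2 floxed copies of Atf3 and the Adv-Cre transgene, which drives Cre recombinase from the gene Avil (advillin), which is active mainly in sensory neurons, and so removes a floxed exon of Atf3 there. The left sciatic nerve of each mouse was crushed at an age of 8 to 12 weeks, and 3 days later the lumbar dorsal root ganglia L4, L5 and L6 of both sides were taken. The cells were dissociated and the neurons enriched with Percoll, and each mouse gave 1 injured and 1 naive library. The 16 libraries, of 34 in the series, were chosen by the genotype label and paired by the animal number, and 48795 genes were counted in each. The other 18 libraries are both sides of 9 control mice (ATF3 wt) from the same colony, injured and sampled in the same way, of 3 kinds: Adv-Cre-positive without the floxed allele, Cre-negative heterozygous for it, and Cre-negative without it. They entered only to set the response without ATF3 beside that with it. The naive side belongs to an injured animal, so both sides of every mouse share its surgery and its Cre. Mice are named by genotype and animal number, as in cKO-131.

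Dorsal root ganglia hold the cell bodies of sensory neurons, whose peripheral axons run in the sciatic nerve. A neuron whose axon is crushed changes its transcription: genes for axon growth, secreted signals and stress defence are switched on, and genes for ion channels and transmitter release are turned down. ATF3 is a basic leucine zipper (bZIP) factor known to be low in intact sensory neurons and strongly induced in injured ones, where it acts together with other bZIP proteins such as JUN.

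The cKO libraries held 45388993 to 77632944 counts (median 55062881). Genes of neurons dominated the marker lists: 24 pan-neuronal genes summed to between 14400 and 20900 CPM (counts scaled to library size) on either side, satellite glia markers to between 1150 and 2930 CPM, and macrophage markers to between 36.2 and 269 CPM. These sums were measured after the enrichment of neurons, so they do not give the make-up of the ganglia. In bulk RNA, fewer cells of a type and less RNA per cell cannot be told apart. Ribosomal RNA spacer genes took 6.98% to 9.45% of the counts in cKO-152, cKO-156 and cKO-163 and 13.9% to 19.69% in the other 5 mice. Mouse cKO-131 stood apart in Avil, the gene whose locus drives Cre, at 83.4 CPM on the naive and 88.8 CPM on the injured side, against medians of 492 and 458 CPM over the 8 mice. The sexes were 5 females and 3 males. Of the 3 males 2 are in the set with the low ribosomal share, so sex and this share overlap.

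Atf3 itself (ENSMUSG00000026628, chromosome 1, 191170296 to 191218039 on the minus strand in GRCm38) was counted over the whole gene, so its count does not check the deletion. The naive sides ran from 70.1 to 150 CPM (median 123) and the injured sides from 179 to 361 CPM (median 254). The 2 sides did not overlap, and Atf3 rose in 8 of 8 mice, with an injury effect of 1.14 on the log2 scale (SE 0.13). The adjusted p of 0.000706, like those that follow, is from edgeR with the mouse as a block. The per-mouse log2 ratio was between 0.85 and 2.12 and was highest in cKO-163. The rise in wt was 1.49, and the difference of the effects, -0.34 with a 95% interval of -0.91 to 0.23, did not pass (adjusted p = 0.524).

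Without neuronal ATF3 the crush still moved many genes, most of them by small amounts. Of 18369 genes tested, 1327 rose (7.22%) and 1487 fell (8.10%) at an adjusted p of 0.05. Among them 168 rose and 10 fell by at least 2-fold, and 27 rose by at least 4-fold. The median log2 fold change was 0.33 among genes that rose, -0.22 among genes that fell and 0.001 over all genes. A rise in all 8 mice was seen for 950 of the 1327 genes, and a fall in all 8 for 770 of the 1487. Calls were more frequent among well-counted genes: over 100 CPM, 10.5% of 1849 genes rose and 19.3% fell, while under 1 CPM 3.72% of 3680 rose and 1.2% fell. Large rises had the opposite distribution, with 77 of the 168 2-fold rises under 1 CPM and 5 over 100 CPM. Protein-coding genes accounted for 1221 of the rises and 1405 of the falls. The injury effect did not pass a difference between females and males for any gene in edgeR's test (0 called, 520 of 18369 at an unadjusted p under 0.05).

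The number of calls depended on single mice. Leaving out cKO-130, cKO-152 or cKO-163 left 1834, 1688 and 1668 calls in place of 2814, and leaving out cKO-131, the mouse with low Avil, gave 3211. Without cKO-163 858 genes rose, and the falls numbered 886 without cKO-130, 750 without cKO-152, 810 without cKO-163 and 964 without cKO-192. The 10 falls of at least 2-fold became 23 without cKO-156, 6 without cKO-152 or cKO-193 and 4 without cKO-163 or cKO-192. Without the block for the mouse, 786 genes passed.

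The 10 largest named rises, chosen among genes that passed and rose in 8 of 8 mice, included secreted proteins, receptors and membrane proteins. Timp1, a secreted inhibitor of matrix metalloproteinases (ENSMUSG00000001131, chromosome X, 20870166 to 20874735), was between 0.186 and 0.892 CPM on the naive sides (median 0.323) and between 2.37 and 8.56 CPM on the injured sides (median 6.72). The sides did not overlap, and the rise on the log2 scale was 3.93 (SE 0.37, adjusted p = 0.000259). The difference from the 3.26 of wt did not pass (adjusted p = 0.484). Ecel1, a membrane protease induced in injured neurons, went from a range of 0.292 to 0.855 CPM to one of 2.94 to 10.5 CPM, a rise of 3.65 (SE 0.33, adjusted p = 0.000229). It rose by 5.47 in wt, and the smaller rise in cKO passed (difference -1.79, SE 0.50, adjusted p = 0.0354). The difference did not pass without cKO-192 (adjusted p = 0.0727), among others. Fst encodes follistatin, which binds activins, and rose by 2.79 (SE 0.23, adjusted p = 0.000148). Its rise in wt was 4.12, and the difference of -1.33 (SE 0.39) passed (adjusted p = 0.0466). It did not pass without wt-172 (adjusted p = 0.0843), among others.

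The orphan receptor gene Gpr151 (chromosome 18, 42577881 to 42579652) ran from 0.751 to 1.33 CPM on the naive sides (median 0.942) and from 3.73 to 10.3 CPM on the injured sides (median 5.78), again without overlap. It rose by 2.74 (SE 0.16, adjusted p = 2.3e-05), less than the 5.84 of wt, and the difference of -3.08 (SE 0.37) passed (adjusted p = 0.000147). Steap1, a gene of the STEAP family of membrane proteins, was 1.01 to 1.70 CPM on the naive and 4.93 to 10.8 CPM on the injured sides, a rise of 2.43 (SE 0.17, adjusted p = 6.01e-05). It rose by 1.59 in wt, and the larger rise in cKO passed (0.84, SE 0.22, adjusted p = 0.0253), but not without cKO-163 (adjusted p = 0.0512).

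Itpr1, the inositol trisphosphate receptor that releases calcium from the endoplasmic reticulum (ENSMUSG00000030102, chromosome 6, 108213096 to 108551109), had naive sides between 10.9 and 22.6 CPM (median 14.4) and injured sides between 53.9 and 121 CPM (median 73.0). The rise of 2.35 (SE 0.23, adjusted p = 0.000313) was present in 8 of 8 mice, and the difference from the 1.77 of wt did not pass (0.59, 95% interval 0.01 to 1.16, adjusted p = 0.214). Gabra5, a subunit of the GABA-A receptor, rose by 2.08, the semaphorin gene Sema6a by 1.98, the mitochondrial arginase gene Arg2 by 1.96 and Mdga1, a membrane protein that binds neuroligins, by 1.85. The SE of these 4 was between 0.12 and 0.23, and their adjusted p between 6.66e-05 and 0.000787. Sema6a rose more in wt, by 3.46, and the difference of -1.47 (SE 0.30) passed (adjusted p = 0.00631). For Gabra5, Arg2 and Mdga1 the difference did not pass (adjusted p between 0.0605 and 0.979).

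Some rises began from almost no counts, so that no fold is given. Sprr1a, a protein best known from cornified skin and from axon regrowth, had 2 counts in all over the 8 naive libraries and between 0.677 and 8.44 CPM (median 5.18) on the injured sides, lowest in cKO-131. Reg3g, a secreted lectin, had 0 counts on every naive side and between 0.339 and 2.31 CPM on the injured sides, also lowest in cKO-131. Both passed (adjusted p = 5.39e-08 and 0.00183).

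**Figure D1:**
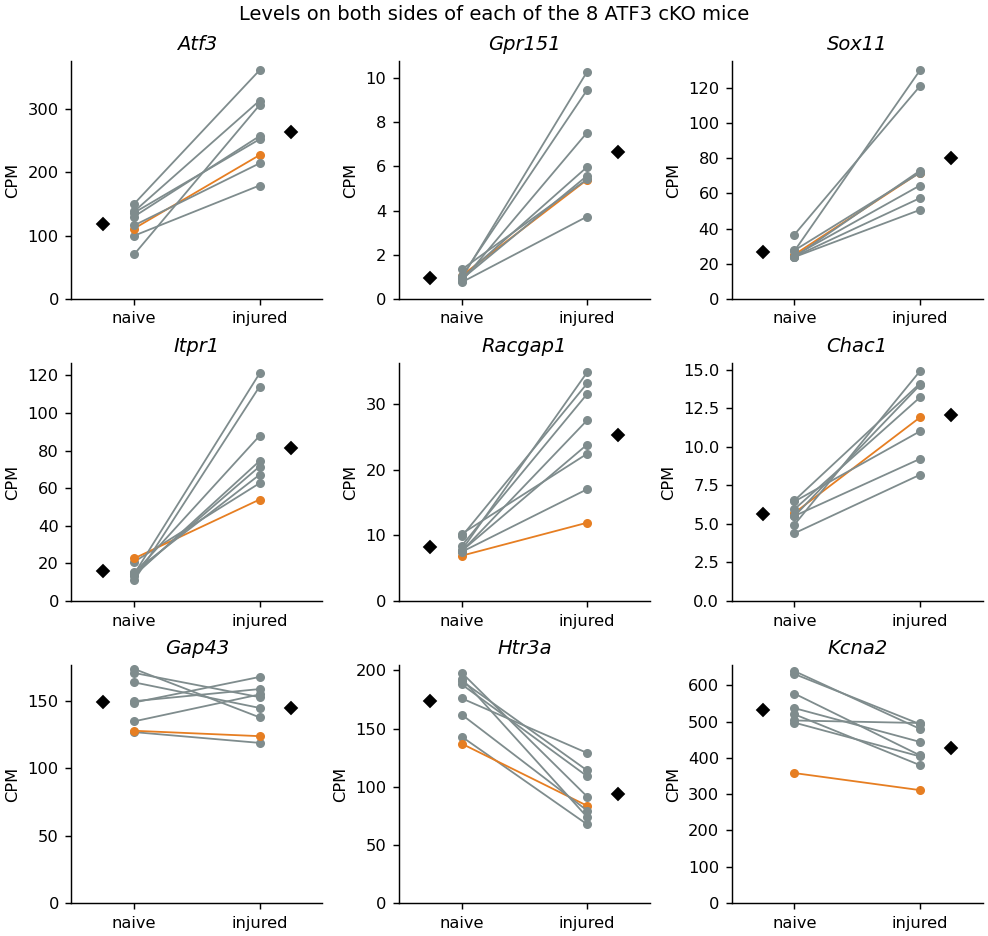
Levels in CPM (linear axes from 0) of 9 genes on the naive and injured side of each of the 8 ATF3 cKO mice. A line joins both sides of a mouse, cKO-131 is orange, and diamonds are group means. Atf3, Gpr151, Sox11, Itpr1, Racgap1 and Chac1 are higher on the injured side in 8 of 8 mice, Htr3a and Kcna2 are lower in 8 of 8, and the Gap43 lines cross.

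The largest named falls were of about 2-fold or less and were chosen among genes that fell in 8 of 8 mice. Htr3a, Htr3b, Chrnb3 and Chrna6, 4 of the 10, were subunits of ligand-gated cation channels. Htr3a, which forms the serotonin 5-HT3 receptor (ENSMUSG00000032269, chromosome 9, 48899213 to 48911099), was between 137 and 198 CPM on the naive sides (median 182) and between 67.6 and 129 CPM on the injured sides (median 87.5). Its sides did not overlap, and it fell by 0.92 on the log2 scale (SE 0.09, adjusted p = 0.000329). The partner subunit gene Htr3b, from 16.6 to 26.2 CPM on the naive and 9.29 to 16.5 CPM on the injured sides, fell by 0.78 (SE 0.09, adjusted p = 0.000485). The nicotinic subunit genes Chrnb3 and Chrna6 fell by 0.94 (SE 0.20, adjusted p = 0.0127) and, for the latter, by 0.79 (SE 0.12, adjusted p = 0.00269). All 4 are channels that open to serotonin or acetylcholine.

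Cyp26b1, which degrades retinoic acid, had the largest fall of the 10, 0.99 on the log2 scale (SE 0.17, adjusted p = 0.00484), from a median of 8.61 to one of 4.97 CPM with overlapping sides. The matrix protein gene Comp, the exchange factor gene Ngef, the calcium-binding protein gene Necab2, the procollagen protease gene Adamts2 and the sensory neuron transcription factor gene Pou4f3 had log2 fold changes between -0.83 and -0.67. For none of the 10 falls did the difference from wt pass, and the differences were between -0.03 and 0.60.

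Injury-related transcription factors were compared with the whole gene set by list. Among 33 tested genes of the bZIP family, 8 rose and 0 fell, with a median log2 fold change of 0.07 against 0.001 over all genes. Jun, the AP-1 factor, was between 204 and 421 CPM on the naive sides (median 346) and between 363 and 589 CPM on the injured sides (median 450), and rose by 0.48 (SE 0.10, adjusted p = 0.0107). Atf5 and Ddit3, bZIP factors of the stress response, rose by 0.36 (SE 0.05, adjusted p = 0.00151) and 0.39 (SE 0.05, adjusted p = 0.00122). Crem, a regulator of cyclic AMP-dependent transcription, rose by 0.34 (SE 0.06, adjusted p = 0.00597), less than in wt (0.97, difference -0.63, SE 0.15, adjusted p = 0.0181).

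Of 29 other injury-related factors, 8 rose and 4 fell (median 0.01). Leaving out cKO-130, cKO-152 or cKO-163 left 2 falls. Sox11, a growth-associated factor of injured neurons, ran from 23.8 to 36.6 CPM on the naive sides (median 24.9) and from 50.6 to 130 CPM on the injured sides (median 71.8). The sides did not overlap and the rise was 1.52 (SE 0.11, adjusted p = 9.38e-05). This was less than in wt, and the difference passed with all mice but not without cKO-193 (adjusted p = 0.0717), among others. Bhlhe41, a repressor, went from a range of 70.4 to 86.2 CPM to one of 103 to 149 CPM, a rise of 0.63 (SE 0.05, adjusted p = 0.000122) beside 0.68 in wt. Smad1, which carries bone morphogenetic protein signals, rose by 0.43 (SE 0.06, adjusted p = 0.000862), and Stat3, which carries cytokine signals, by 0.17 (SE 0.03, adjusted p = 0.00338). Klf6 was 106 CPM at the median of the naive and 112 CPM at that of the injured sides and did not pass (0.04, adjusted p = 0.655), and its effect was below the 0.70 of wt (difference -0.65, SE 0.16, adjusted p = 0.0169).

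Axon growth and growth cone genes were the list with the second largest share of rises. Of 42 tested, 20 rose and 2 fell, with a median log2 fold change of 0.23, and the median over the list was between 0.08 and 0.29 in each of the 8 mice. With 1 mouse left out between 15 and 18 rose, and 1 fell without cKO-194, cKO-192, cKO-163, cKO-156, cKO-152 or cKO-130. Tubb6, a tubulin of growing axons, was 4.10 to 7.91 CPM on the naive sides (median 6.00) and 9.11 to 29.9 CPM on the injured sides (median 19.2). It did not overlap and rose by 1.67 (SE 0.10, adjusted p = 2.3e-05), beside 3.58 in wt. The adhesion protein gene Flrt3 went from a median of 17.4 to one of 39.5 CPM, without overlap, and rose by 1.14 (SE 0.07, adjusted p = 2.3e-05), beside 2.71 in wt. The difference of the effects passed for both (adjusted p = 0.000246 and 0.000495). Stmn4, a regulator of microtubules, rose by 1.23 (SE 0.14, adjusted p = 0.000667), and the small heat shock protein gene Hspb1 by 0.54 (SE 0.06, adjusted p = 0.000415).

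Gap43, the growth cone protein often used as a marker of regrowth, did not pass in cKO. It ran from 127 to 174 CPM on the naive sides (median 150) and from 119 to 168 CPM on the injured sides (median 149). The sides overlapped, 3 of 8 mice were higher on the injured side, and the log2 fold change was -0.05 (95% interval -0.19 to 0.08, adjusted p = 0.597). In wt it rose by 1.21, and the difference was -1.26 (SE 0.21, adjusted p = 0.00179). Over the list, 19 of 42 genes had a smaller effect in cKO and 0 a larger one, against 4.29% smaller and 3.25% larger of all 19565 genes tested for the difference. Leaving out 1 of the 17 mice gave between 14 and 24 smaller effects.

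Secreted signals were divided. Of 16 neuropeptide genes 3 rose and 1 fell, of 11 neurotrophic ligands 2 rose, and of 18 signals from neurons to immune cells 3 rose, with list medians of -0.17, 0.04 and 0.19. Without cKO-131 or cKO-193 2 neuropeptide genes fell, without cKO-130 1 immune signal rose, and 1 immune signal fell without cKO-192 and 1 neurotrophic ligand without cKO-156. Nts, which encodes neurotensin, went from a range of 1.07 to 2.17 CPM to one of 4.5 to 11.8 CPM, a rise of 1.83 (SE 0.12, adjusted p = 3.42e-05), less than the 4.12 of wt (difference -2.27, SE 0.24, adjusted p = 6.58e-05). Vgf, a precursor of several peptides, ran from 168 to 308 CPM on the naive and 300 to 530 CPM on the injured sides, and rose by 0.93 (SE 0.08, adjusted p = 0.000133). Nmb, the neuromedin B gene, fell by 0.31 (SE 0.06, adjusted p = 0.00704).

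A pair of familiar injury signals did not pass. Gal, the galanin gene, was 10.6 to 32.4 CPM on the naive sides (median 15.1) and 14.1 to 22.5 CPM on the injured sides (median 21.2), with a log2 fold change of 0.25 (95% interval -0.11 to 0.60, adjusted p = 0.345). Csf1, a growth factor of macrophages and microglia, went from a median of 26.8 to one of 30.1 CPM (0.21, 95% interval 0.05 to 0.38, adjusted p = 0.0784). Their sides overlapped, and both effects were below those of wt, with differences of -2.73 (SE 0.45, adjusted p = 0.00179) for Gal and -2.05 (SE 0.30, adjusted p = 0.000788) for Csf1.

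Other ligands rose in cKO. Bdnf, a neurotrophin, was between 32.9 and 48.5 CPM on the naive sides (median 39.2) and between 43.7 and 93.0 CPM on the injured sides (median 80.2), a rise of 0.86 (SE 0.08, adjusted p = 0.000175). Its effect in wt was 0.69 and the difference, 0.18 (95% interval -0.02 to 0.37), did not pass (adjusted p = 0.280). Spp1, the secreted matrix protein osteopontin, rose by 1.28 (SE 0.20, adjusted p = 0.00351), from a median of 30.9 to one of 86.2 CPM, beside 1.23 in wt. Ntf3, the neurotrophin that acts on proprioceptors, was at low level, 0.223 to 0.850 CPM on the naive and 0.564 to 1.64 CPM on the injured sides. It rose in 8 of 8 cKO mice (1.07, SE 0.16, adjusted p = 0.00232) and fell in 9 of 9 wt mice (-1.29, adjusted p = 0.00185), and the difference was 2.36 (SE 0.29, adjusted p = 0.000152).

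Among 28 neurotrophic and cytokine receptors 4 rose and 7 fell (median -0.01), with 4 falls when cKO-163 was left out. Gfra1, the GDNF co-receptor, ran from 121 to 160 CPM on the naive sides (median 134) and from 182 to 476 CPM on the injured sides (median 353), without overlap. It rose by 1.27 (SE 0.10, adjusted p = 0.000139), and the difference from wt was -0.40 (95% interval -0.83 to 0.04, adjusted p = 0.276). Tnfrsf12a, the receptor of the cytokine TWEAK, rose by 0.97 (SE 0.14, adjusted p = 0.00148).

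**Figure D2:**
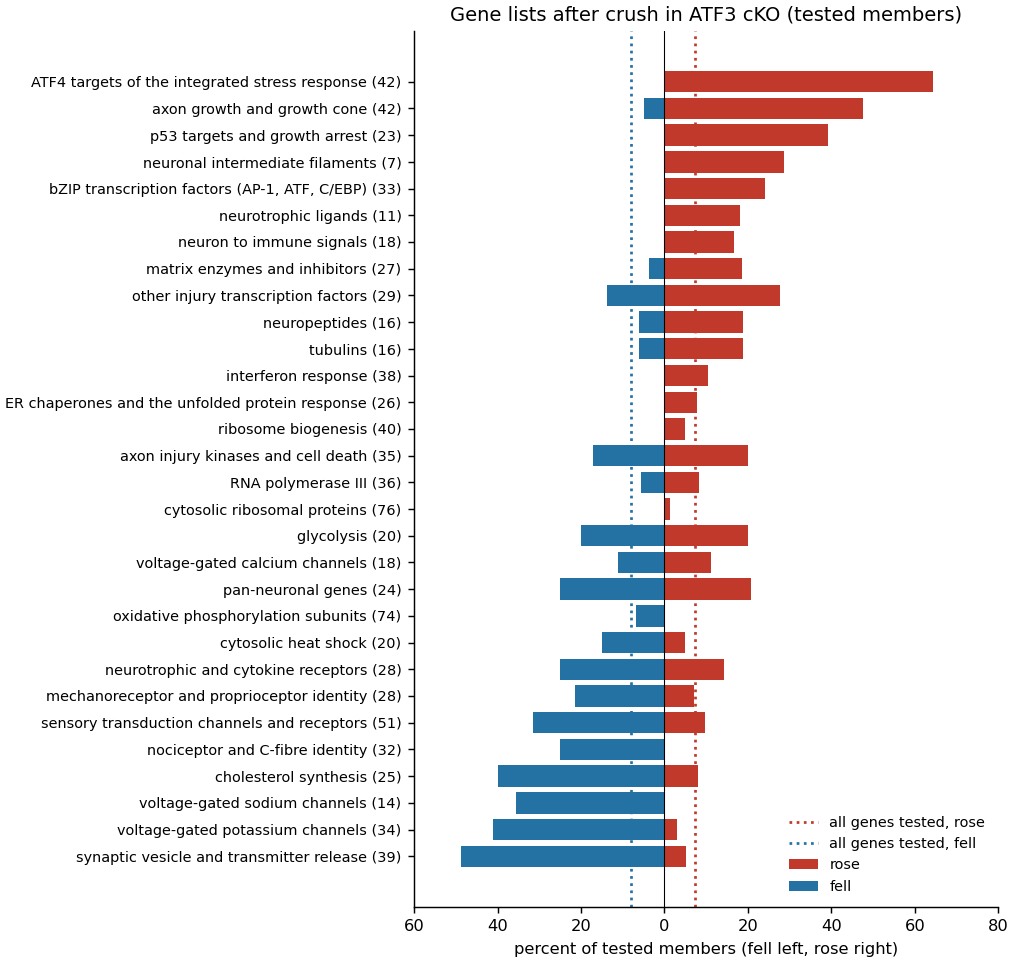
Share of the tested members (number in brackets) of 30 gene lists that rose (red, to the right) or fell (blue, to the left) after crush in ATF3 cKO, in percent. Dotted lines are the shares over all 18369 genes, 7.22% and 8.10%. ATF4 targets and axon growth genes have the largest shares of rises, and synaptic vesicle, potassium channel and cholesterol synthesis genes the largest shares of falls.

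Among channels of excitability falls outnumbered rises. Of 34 voltage-gated potassium channel genes, which set the resting potential and repolarise the membrane, 14 fell and 1 rose, with a median of -0.20 over the list and a per-mouse median below 0 in 8 of 8 mice (-0.30 to -0.02). Kcna2 (ENSMUSG00000040724, chromosome 3, 107101146 to 107115005) was between 358 and 639 CPM on the naive sides (median 528) and between 311 and 496 CPM on the injured sides (median 426). The ranges overlapped across mice but each mouse was lower on its injured side, a fall of 0.32 (SE 0.05, adjusted p = 0.00222). Kcns3 fell by 0.28 (SE 0.05, adjusted p = 0.00301) and Kcnd2 by 0.57 (SE 0.14, adjusted p = 0.0183). The falls of the list numbered 4 without the block, 6 with all 34 libraries, 21 in DESeq2 and 16 in limma voom. Within smaller sets they numbered 7 at low and 1 at high ribosomal share, 3 in females and 0 in males.

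Kcng4, a modulatory potassium channel subunit, was the single rise of that list, which had 2 rises without cKO-131 and 3 without cKO-156. It ran from 6.48 to 13.7 CPM on the naive sides (median 9.58) and from 8.95 to 30.6 CPM on the injured sides (median 24.9), and rose in 7 of 8 mice (1.12, SE 0.20, adjusted p = 0.00663). In wt it fell by 0.43, and the difference was 1.55 (SE 0.26, adjusted p = 0.00202). In 7 of the 34 potassium channel genes the effect in cKO was higher than in wt and in 0 it was lower. Over all genes tested for the difference these shares were 3.25% and 4.29%. Leaving out 1 of the 17 mice gave between 5 and 9 higher effects.

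Of 14 voltage-gated sodium channel genes 5 fell and 0 rose (median -0.17). Scn10a, the Nav1.8 channel of nociceptors, ran from 1560 to 1860 CPM on the naive sides (median 1745) and from 1240 to 1710 CPM on the injured sides (median 1490), and fell in 8 of 8 mice by 0.23 (SE 0.05, adjusted p = 0.0119). The beta subunit gene Scn2b fell by 0.38 (SE 0.07, adjusted p = 0.00502). Of 18 voltage-gated calcium channel genes 2 rose and 2 fell (median -0.06), and with a single mouse left out the falls numbered 5 without cKO-131, 4 without cKO-156 and 1 without cKO-163 or cKO-194.

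Of 51 sensory transduction channels and receptors 16 fell and 5 rose, with a median of -0.20 and a per-mouse median below 0 in 8 of 8 mice. Leaving out cKO-130, cKO-152, cKO-163, cKO-193 or cKO-194 left 3 rises. The falls numbered 4 without the block, 8 with all 34 libraries, 26 in DESeq2 and 18 in limma voom. Within smaller sets they numbered 6 at low and 3 at high ribosomal share, 6 in females and 0 in males. Besides the serotonin and nicotinic subunits above, the serotonin receptor gene Htr7 fell by 0.40 (SE 0.07, adjusted p = 0.00397). Oprd1, the delta opioid receptor, went from a median of 26.2 to one of 19.8 CPM and fell by 0.39 (SE 0.06, adjusted p = 0.00186), less than the 0.99 by which it fell in wt (difference 0.61, SE 0.14, adjusted p = 0.0137). Another serotonin receptor gene, Htr1f, rose by 0.86 (SE 0.11, adjusted p = 0.0011), beside 0.81 in wt.

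The counts for genes of neuron identity depended on single mice. Of 32 nociceptor genes 8 fell and 0 rose (median -0.27). The number of falls was 3 without cKO-163, 5 without cKO-130 or cKO-152, 14 without cKO-156 and 15 without cKO-131. Prdm12, a transcription factor of nociceptors, fell by 0.28 (SE 0.04, adjusted p = 0.00286). Of 28 mechanoreceptor and proprioceptor genes 6 fell and 2 rose (median -0.15), with 3 falls without cKO-163 and 4 rises without cKO-156. Cadps2, which primes dense-core vesicles, fell by 0.44 (SE 0.08, adjusted p = 0.00564).

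Genes of synaptic vesicles and transmitter release had the largest share of falls, 19 of 39, with 2 rises and a median of -0.14. The falls numbered 6 without the block, 12 with all 34 libraries, 22 in DESeq2 and 18 in limma voom. Within smaller sets they numbered 6 at low and 0 at high ribosomal share, 1 in females and 1 in males. The per-mouse median was below 0 in 8 of 8 mice (-0.28 to -0.01). The falls numbered 12 without cKO-130, 11 without cKO-152 and 11 without cKO-163, and the rises 0 without cKO-130, cKO-131, cKO-152 or cKO-163 and 1 without cKO-156, cKO-192 or cKO-193. Cplx2, a complexin that clamps vesicle fusion, was 278 to 435 CPM on the naive sides (median 382) and 217 to 366 CPM on the injured sides (median 270), and fell in 8 of 8 mice by 0.47 (SE 0.07, adjusted p = 0.00286). The Rab3 effector gene Rph3a fell by 0.41 (SE 0.06, adjusted p = 0.00286) and the synapsin gene Syn2 by 0.26 (SE 0.05, adjusted p = 0.00567).

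Slc17a6, the main vesicular glutamate transporter of sensory neurons, differed from wt. In cKO it went from a range of 220 to 317 CPM (median 272) to a median of 208 CPM, lower on the injured side in 8 of 8 mice, a fall of 0.37 (SE 0.07, adjusted p = 0.00908). In wt the log2 fold change was 0.06 and did not pass (adjusted p = 0.297), and the difference was -0.42 (SE 0.08, adjusted p = 0.00562). In the same list 2 of 39 genes (5.1%) had a lower and 0 a higher effect in cKO, near the 4.29% lower over all genes.

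The integrated stress response slows general translation and raises the translation of ATF4, a bZIP factor that switches on genes of amino acid supply. This was the list with the largest share of rises: of 42 tested ATF4 target genes 27 rose and 0 fell. The median log2 fold change was 0.27 in cKO and 0.35 in wt, and the per-mouse median was above 0 in 8 of 8 mice (0.12 to 0.38). Leaving out 1 mouse left between 24 and 27 rises. Fitted within smaller sets, 11 rose in the 3 mice of low ribosomal share, 13 in the 5 of high share, 16 in females and 0 in males. Several list members are also targets of other bZIP factors, and Atf3 is one of the 27.

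Chac1, which breaks down glutathione (ENSMUSG00000027313, chromosome 2, 119351229 to 119354381), was between 4.39 and 6.52 CPM on the naive sides (median 5.61) and between 8.18 and 14.9 CPM on the injured sides (median 12.6). The sides did not overlap and it rose by 1.08 (SE 0.09, adjusted p = 0.000112). In wt the rise was 1.23, and the difference was -0.14 with a 95% interval of -0.64 to 0.36. The amino acid transporter gene Slc7a5 went from a median of 63.2 to one of 89.9 CPM and rose by 0.51 (SE 0.08, adjusted p = 0.00345). Enzymes of serine and one-carbon metabolism rose as well: Mthfd2 by 0.50 (SE 0.05, adjusted p = 0.000159), Shmt2 by 0.35 (SE 0.04, adjusted p = 0.000306) and Psat1 by 0.34 (SE 0.03, adjusted p = 0.000147), each without overlap of the sides.

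The list holds 10 aminoacyl-tRNA synthetases, which load amino acids onto transfer RNAs. Of these 9 rose, by 0.14 (Lars) to 0.43 (Cars), and Tars did not pass (0.06, adjusted p = 0.246). Nars did not pass without cKO-163 (adjusted p = 0.0648). Iars was between 85.7 and 114 CPM on the naive sides (median 102) and between 109 and 160 CPM on the injured sides (median 136), with per-mouse log2 ratios of 0.30 to 0.54 in all 8 mice. Its rise was 0.40 (SE 0.03, adjusted p = 0.000103), beside 0.34 in wt (difference 0.07, 95% interval -0.07 to 0.21). Cars rose by 0.43 (SE 0.04, adjusted p = 0.000231) without overlap, and Aars by 0.32 (SE 0.04, adjusted p = 0.00128). Atf4 itself went from a median of 114 to one of 117 CPM and did not pass (0.07, 95% interval 0.01 to 0.13, adjusted p = 0.106). The difference of the Atf4 effect from that of wt passed with all mice. It did not pass without cKO-152 or wt-139 (adjusted p = 0.0654 and 0.0731), among others. The count measures its RNA and not its translation.

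**Figure D3:**
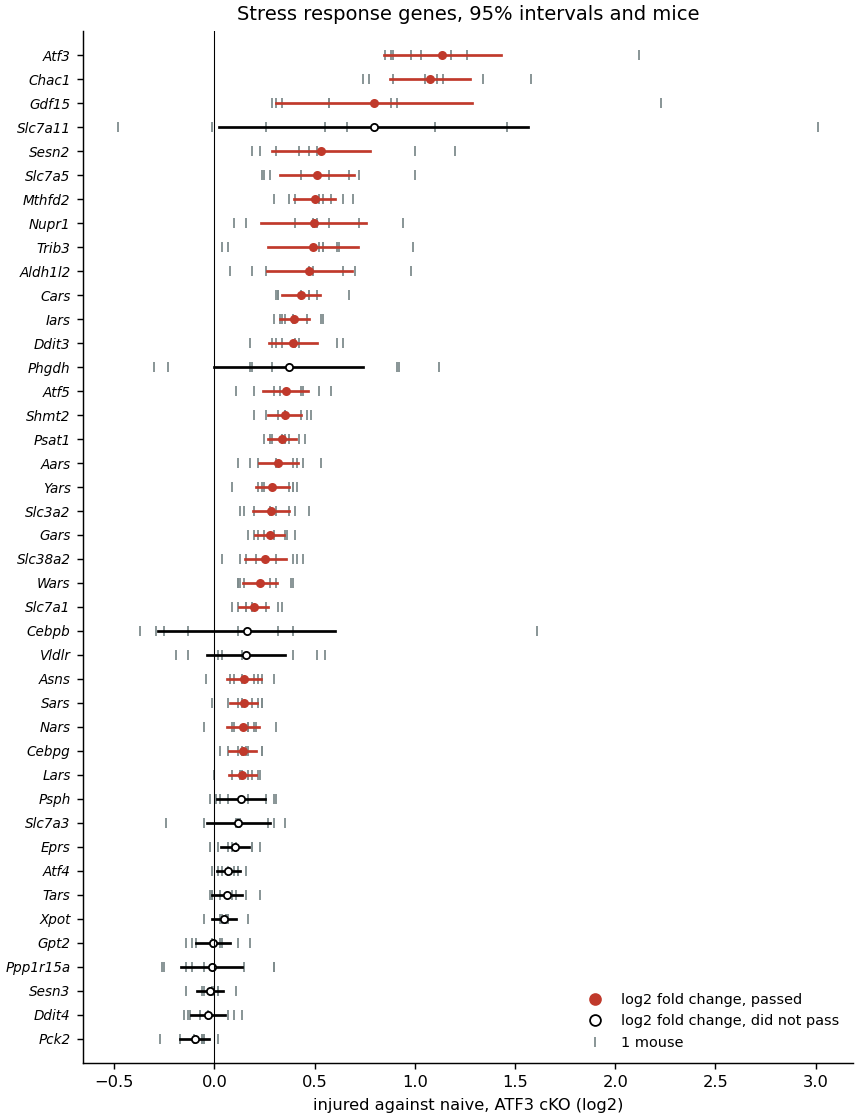
Log2 fold change, injured against naive, of the 42 tested ATF4 target genes in ATF3 cKO with its 95% interval, and the log2 ratio of each of the 8 mice as ticks. Red points passed the threshold and white points did not. The 27 genes that passed lie above 0, from 0.14 for Lars to 1.14 for Atf3.

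The promoters of these genes were searched for the letters of an ATF4 site, TGATGNAA, on both strands, in windows from 250 bases before to 50 bases after the gene start (RefSeq, GRCm38.p6). A promoter was held for 21 of the 27 genes that rose, and 9 of the 21 (42.9%) contained the letters, as did 12 of 35 (34.3%) over the whole list and 284 of 12222 (2.32%) over all genes tested that had a promoter. The list was assembled from known ATF4 targets, so this share describes the list and not the response. Nupr1 did not pass without cKO-163 (adjusted p = 0.052), nor Asns without cKO-130, cKO-163 or cKO-193 (adjusted p = 0.0613, 0.0584 and 0.0529). Among all genes that rose in cKO the letters were in 38 of 982 promoters (3.87%), and among those that rose at least 2-fold in 7 of 116 (6.03%). Sites of genes on the list that rose are shown with 10 bases on each side, to let the matches be read beside the values above, with the matched letters in capitals and the strand turned so that the motif reads forward.
Iars, chr13:49682127-49682154, minus strand: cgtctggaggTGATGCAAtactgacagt
Chac1, chr2:119351039-119351066, minus strand: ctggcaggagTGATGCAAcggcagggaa
Atf3, chr1:191183426-191183453, plus strand: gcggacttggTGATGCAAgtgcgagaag
Gars, chr6:55037961-55037988, minus strand: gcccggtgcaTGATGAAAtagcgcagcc
Yars, chr4:129189896-129189923, plus strand: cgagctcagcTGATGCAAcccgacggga
Trib3, chr2:152344029-152344056, plus strand: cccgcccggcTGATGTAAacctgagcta
Nupr1, chr7:126625563-126625590, plus strand: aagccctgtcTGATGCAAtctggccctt
Asns, chr6:7693215-7693242, minus strand: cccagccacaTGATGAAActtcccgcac
Aars, chr8:111033841-111033868, minus strand: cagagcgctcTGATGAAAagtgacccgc
The sites shown for Iars, Yars, Trib3 and Aars lie after the first listed RefSeq start, which set the window, and the others before it. For Atf3 this window lies inside the gene span given above, so its site is not before the start of that span.

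The AP-1 letters TGANTCA, bound by JUN-containing dimers, were in 611 of 12222 promoters (5.00%), in 68 of 982 promoters of genes that rose in cKO (6.92%) and in 16 of 116 of those that rose at least 2-fold (13.8%). The cyclic AMP response element TGACGTCA was in 375 of 12222 (3.07%), 21 of 982 (2.14%) and 0 of 116 promoters in the same order. Each motif was searched on both strands and counted on its own, so a promoter may count under more than 1. A match of letters does not show binding.

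Other stress genes moved less. Of 26 genes of endoplasmic reticulum chaperones and the unfolded protein response 2 rose (1 without cKO-163) and 0 fell, with a median of 0.00, and of 20 cytosolic heat shock genes 1 rose and 3 fell (6 without cKO-131). Of 23 p53 targets and growth arrest genes 9 rose and 0 fell (median 0.13), with 5 rises without cKO-130, cKO-152, cKO-163 or cKO-194. Gadd45a, a growth arrest gene, ran from 12.8 to 17.3 CPM on the naive sides (median 15.7) and from 25.3 to 42.9 CPM on the injured sides (median 31.3), and rose by 1.05 (SE 0.10, adjusted p = 0.000217). Cdkn1a, the cell cycle inhibitor p21, went from a median of 33.1 to one of 59.0 CPM and rose by 0.83 (SE 0.10, adjusted p = 0.000862). Neither overlapped, and both rose less than in wt, with differences of -1.46 (SE 0.29, adjusted p = 0.0058) for Gadd45a and -1.18 (SE 0.26, adjusted p = 0.0112) for Cdkn1a.

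Of 35 axon injury kinase and cell death genes 7 rose and 6 fell (median -0.03). Without cKO-152 or cKO-163 there were 4 rises, and the falls numbered 1 without cKO-130, cKO-152 or cKO-163 and 2 without cKO-192 or cKO-194. Dusp16, a phosphatase of the JNK kinases, went from a range of 12.6 to 17.4 CPM to one of 19.1 to 27.8 CPM and rose by 0.52 (SE 0.07, adjusted p = 0.00141). It did not pass in wt (0.09, adjusted p = 0.195), and the difference was 0.44 (SE 0.09, adjusted p = 0.00605).

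Cholesterol synthesis genes fell more often than they rose in cKO and rose more often than they fell in wt. The pathway turns acetyl-CoA into sterols and is controlled by the factor SREBP2. Of 25 tested genes 10 fell and 2 rose in cKO, with a median of -0.11, while in wt 15 rose and 2 fell (19.0% and 18.2% of all 18288 genes there), with a median of 0.15. The falls in cKO were small, and numbered 5 without cKO-130 or cKO-193, 4 without cKO-194 and 3 without cKO-152 or cKO-163. They numbered 11 in DESeq2, 9 in limma voom, 3 with all 34 libraries and 0 without the block. Within smaller sets 0 fell at low or high ribosomal share or in males, and 1 fell in females. At low share 2 rose, and 1 rose in males. In the difference of the effects 14 of 25 genes had a lower effect in cKO and 0 a higher one, against 4.29% and 3.25% of all genes. With 1 of the 17 mice left out between 12 and 16 had a lower effect.

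Hmgcs1, an early enzyme of the pathway (ENSMUSG00000093930, chromosome 13, 119690379 to 119708260), was between 510 and 746 CPM on the naive sides (median 562) and between 448 and 650 CPM on the injured sides (median 524). It was lower on the injured side in 8 of 8 mice and fell by 0.17 (SE 0.04, adjusted p = 0.016). In wt it rose by 0.18, and the difference was -0.34 (SE 0.07, adjusted p = 0.0086). Insig1, a brake on SREBP2, did not pass in cKO (-0.11) and had a lower effect than in wt (difference -0.47, adjusted p = 0.0133). Hsd17b7, a late enzyme, rose in 8 of 8 cKO mice by 0.35 (SE 0.05, adjusted p = 0.00181), less than the 1.71 of wt (difference -1.36, SE 0.20, adjusted p = 0.00077).

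**Figure D4:**
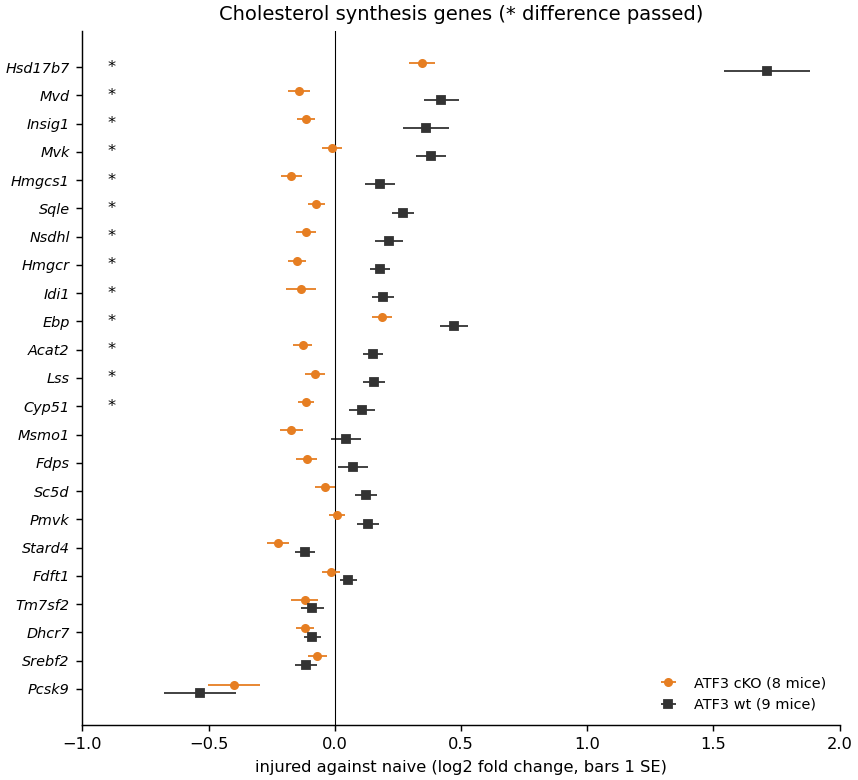
Log2 fold change, injured against naive, of 23 of the 25 cholesterol synthesis genes in 8 ATF3 cKO mice (orange circles) and 9 ATF3 wt mice (black squares). Bars are 1 SE and asterisks mark the 13 genes among them whose effects differed between genotypes. Most cKO points lie between -0.25 and 0 and most wt points between 0 and 0.5.

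Few ribosome and mitochondrial genes passed in cKO. Of 76 cytosolic ribosomal protein genes 1 rose and 0 fell (median 0.01), and of 40 ribosome biogenesis genes 2 rose and 0 fell (median 0.03). Of 74 oxidative phosphorylation subunit genes 5 fell and 0 rose (median -0.04), which is near the share over all genes and numbered 1 without cKO-130, cKO-163 or cKO-192 and 2 without cKO-194, cKO-156 or cKO-152. The glucose transporter gene Slc2a1 rose by 0.54 (SE 0.09, adjusted p = 0.00564). Of 27 matrix enzymes and inhibitors 5 rose and 1 fell, with 9 rises without cKO-131, 3 without cKO-156 and 2 without cKO-130, cKO-152 or cKO-163.

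The calls in cKO were then read against those of wt, which share no library with them. Of 18032 genes tested in both, 915 rose in both genotypes, which is 69.6% of the 1314 that rose in cKO and 27.2% of the 3361 that rose in wt. Another 1155 fell in both, 77.8% of the 1484 that fell in cKO and 34.8% of the 3317 that fell in wt. Calls in opposite directions numbered 18 rises and 35 falls of wt. The 532 genes that rose at least 2-fold in wt had a median log2 fold change of 1.39 there and 0.50 in cKO, where 507 had the same sign and 246 (46.2%) rose. The largest wt responses were called more often in cKO: 79 of 116 that rose at least 4-fold (68.1%) and 32 of 35 that rose at least 8-fold (91.4%), with medians of 0.97 and 1.83 in cKO against 2.55 and 3.70 in wt. These genes were chosen by their effect in the same wt mice, which raises the wt medians and not those of cKO.

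**Figure D5:**
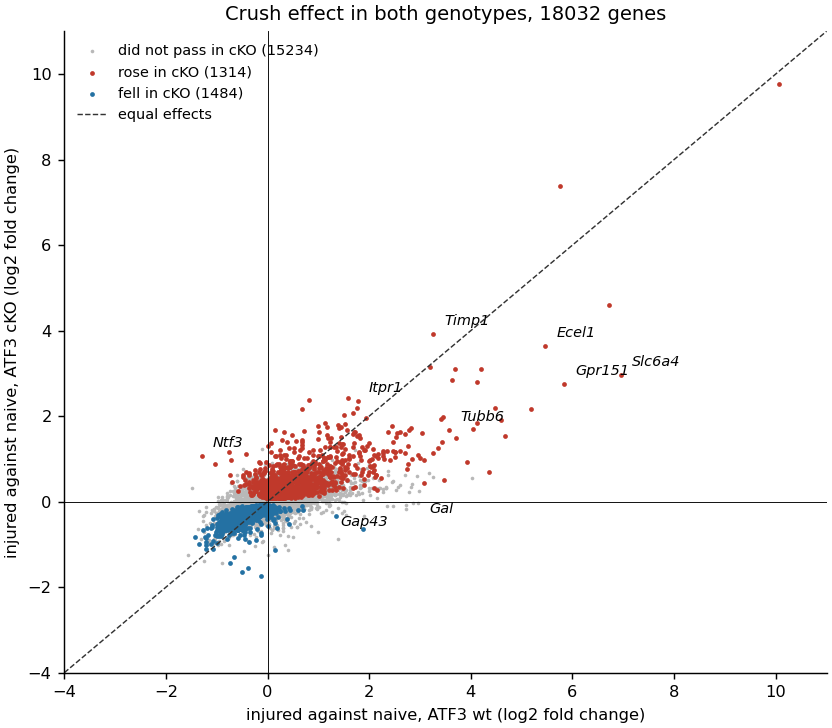
Log2 fold change, injured against naive, in ATF3 wt (horizontal) and ATF3 cKO (vertical) for the 18032 genes tested in both. Red genes rose and blue genes fell in cKO, grey genes did not pass there, and the dashed line is equality. Most genes with large wt effects lie below the line and above 0, Gap43 and Gal lie near 0 in cKO, and Ntf3 lies left of 0 in wt and above 0 in cKO.

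The size of the response, measured on genes that moved in wt, varied among the cKO mice. The slope of a mouse's log2 ratios on the mean ratios of wt mice, over genes that rose or fell at least 2-fold in wt (575 to 862 genes, chosen with each wt mouse left out in turn), was 0.384 ± 0.117 (SD, n = 8), lowest in cKO-131 (0.221) and highest in cKO-194 (0.566). Markers of other cells stood apart in cKO-194: its median log2 ratio was 4.0 for neutrophil markers (-0.52 to 1.21 in the other 7 mice), 1.76 for macrophage (-0.77 to 1.06), 2.29 for dividing cell (-0.01 to 1.35) and 2.85 for red blood cell markers (-1.18 to 1.09). Its sides also had the lowest pair correlation, -0.042. The part of these cells in its slope was not tested. The highest cKO slope lay just above the lowest of wt (0.544), and the groups overlapped. The mouse with the lowest Avil also had the lowest slope, and the part of Avil in it was not tested. Its genotype rests on the label alone, which the count of Atf3 cannot check.

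The difference of the injury effects passed for 1474 of 19565 genes, 635 with a higher effect in cKO (3.25%) and 839 with a lower one (4.29%). Of these, 221 were lower and 36 higher by at least 2-fold. The injury effect on 7 of 19 macrophage markers was among the lower ones, and the part of these cells in the differences was not tested. Slc6a4, the serotonin transporter, rose in cKO from a median of 0.242 to one of 1.56 CPM (2.95, SE 0.34, adjusted p = 0.000563) and by 6.96 in wt (difference -3.98, SE 0.51, adjusted p = 0.000246). Car3, a carbonic anhydrase, rose by 2.17 (SE 0.23, adjusted p = 0.000399) and by 5.18 in wt (difference -2.97, SE 0.43, adjusted p = 0.000659).

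Among the 1327 genes that rose in cKO, 1314 of them tested in wt, 149 rose more than in wt and a larger number rose less. Racgap1, which organises the division spindle (ENSMUSG00000023015, chromosome 15, 99620496 to 99651656), was between 6.88 and 10.2 CPM on the naive sides (median 7.67) and between 11.9 and 34.8 CPM on the injured sides (median 25.6), without overlap. Its rise was 1.56 (SE 0.14, adjusted p = 0.000259) beside 0.48 in wt (difference 1.08, SE 0.19, adjusted p = 0.0022), and its injured side was lowest in cKO-131. Pcdh18, a protocadherin, went from a median of 9.68 to one of 27.4 CPM, with overlapping sides (1.44, SE 0.12, adjusted p = 0.000131) and rose by 0.28 in wt (difference 1.16, SE 0.15, adjusted p = 0.000284).

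Of the genes whose effect passed in cKO and in the difference, 95 that rose and 35 that fell in cKO had an effect of the opposite sign in wt. Frmpd3, a scaffold protein gene, was 27.5 to 40.3 CPM on the naive sides (median 35.7) and 42.2 to 60.4 CPM on the injured sides (median 55.4), without overlap. It rose by 0.57 in cKO (SE 0.06, adjusted p = 0.000249) and fell by 0.24 in wt (difference 0.81, SE 0.09, adjusted p = 4.14e-05). Fstl1, a secreted glycoprotein, ran from 1920 to 2480 CPM on the naive and 2260 to 3330 CPM on the injured sides. It rose in 8 of 8 cKO mice by 0.31 (SE 0.04, adjusted p = 0.000948) and fell by 0.19 in wt (difference 0.51, SE 0.08, adjusted p = 0.0013). Mme, the peptidase neprilysin, rose by 0.64 (SE 0.08, adjusted p = 0.000905), beside -0.24 in wt, which did not pass (difference 0.89, SE 0.14, adjusted p = 0.00112). Cdhr1, a cadherin, fell without overlap from a range of 72.6 to 79.4 CPM to one of 55.2 to 68.8 CPM (-0.28, SE 0.03, adjusted p = 0.000667). It did not pass in wt (0.09), and the difference was -0.37 (SE 0.08, adjusted p = 0.012).

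Genes with like effects were found by the interval of the difference. In 1172 genes both effects passed in the same direction and the 95% interval of their difference lay within 0.5 of 0 on the log2 scale, and 2 of these changed at least 2-fold in cKO. Tmem173, which encodes the DNA sensor adaptor STING, was 3.23 to 5.92 CPM on the naive sides (median 5.69) and 10.5 to 17.3 CPM on the injured sides (median 13.1), a rise of 1.36 (SE 0.13, adjusted p = 0.000236) beside 1.49 in wt (difference -0.12, 95% interval -0.49 to 0.25). Fam210b, a mitochondrial membrane protein gene, rose by 1.01 (SE 0.09, adjusted p = 0.000177) beside 1.11 in wt (difference -0.09, 95% interval -0.41 to 0.23).

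Markers of other cells were read in the same libraries, and their part in the results above was not tested. Macrophage markers summed to between 36.2 and 150 CPM on the naive (median 70.9) and 43.1 and 269 CPM on the injured sides (median 83.0), and of 19 tested 0 passed in edgeR's test, in limma voom or in DESeq2 (median 0.33; 1 higher and 0 lower at an unadjusted p under 0.05). In wt they summed to between 10.2 and 92.4 CPM on the naive and 49.2 and 191 CPM on the injured sides, and 18 of 19 rose (median 1.30). Calls were more frequent in wt at large: of all genes tested 19.0% rose there and 7.22% in cKO. The effect was lower in cKO for 7 of 19 markers, against 4.29% of all genes tested for the difference. It was lower for 3 without cKO-163 and for 4 without wt-139, wt-172, wt-175, cKO-152, cKO-192 or cKO-193. Neutrophil markers summed to between 68.8 and 582 CPM and between 142 and 1140 CPM, and of 14 tested 0 passed with any of the 3 tools (median 0.46; 0 higher and 0 lower at an unadjusted p under 0.05). Their median sums were 205 CPM on the naive and 219 CPM on the injured sides of cKO, against 67.5 and 108 CPM in wt. Of 14 satellite glia markers 3 rose, among them Fabp7 by 0.78 (SE 0.13, adjusted p = 0.00515) and Ednrb by 0.50 (SE 0.12, adjusted p = 0.0215). Without cKO-193 there were 5, and Ednrb did not pass without cKO-130, cKO-152 or cKO-163 (adjusted p = 0.059, 0.056 and 0.0572). The whole list summed to between 1150 and 2570 CPM on the naive (median 1860) and 1320 and 2930 CPM on the injured sides (median 2110). Of 16 markers of dividing cells 3 rose (Bub1, Cdk1 and Cenpf), with 0 without cKO-130 or cKO-192 and 1 without cKO-156 or cKO-163. No member of these 4 lists was at 0 counts on either side.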

How the data were processed

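RNA was measured in dissociated, Percoll-enriched ganglion neurons, and a stranded total-RNA kit was used, per the labels' protocols. The values are unnormalised gene counts deposited by the authors, who used STAR and HTSeq on GRCm38 after bcl2fastq 2.20, per the submitters' processing notes. Neither strand setting nor annotation release is given in the sources used here: overlapping and near-identical genes (tubulins, ribosomal proteins) are uncertain. Total RNA also holds unspliced reads.

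Symbols were matched for 48349 of 48795 gene IDs, and the other 446 hold 0.043% of the counts. Coordinates are those of GENCODE for GRCm38 and promoters those of RefSeq. CPM levels use TMM scaling over 34 libraries, and per-mouse log2 ratios a prior count of 2. Precision comes from the spread between mice.

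The count test was edgeR 4.0.16 under R 4.3.3 (filterByExpr, TMM, robust quasi-likelihood F-test, Benjamini-Hochberg over all genes tested, threshold 0.05), with the mouse as a block: injured against naive in 16 cKO and in 18 wt libraries, and their difference in 34. The SE is the log2 fold change over the square root of F. Pairing comes from the animal: the deviations of both sides of a mouse correlated at a median of 0.523 (lowest -0.042 in cKO-194, highest 0.733, 8 pairs). Closest libraries within a cKO group differed by 9.3 times the sampling noise, so all were kept. Whether replicates were processed together is not stated. The tests were checked on simulated data.

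Alternatives were no block, all 34 libraries, DESeq2 size factors, no filter, DESeq2 1.42.0, limma 3.58.1 voom, spacer genes left out, subsets by sex, Cre and ribosomal share, and each mouse left out. Named genes are the 10 largest rises and falls that passed with at least 5 CPM on the higher side, more than 3 counts on the lower, the same sign in 8 mice and no predicted-gene name, 8 of each sign for the difference, 8 of opposite sign, those alike, Atf3, Avil and list members. Sprr1a and Reg3g fall outside this and were chosen after their values were seen. Some genes and 1 promoter site are not reported here. Genes and lists were chosen with earlier results of these data known.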

Additional observations from a re-analysis of the deposited data

Results flagged for a closer look

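Among 25 sets of 8 values examined for a mouse far from the others, 5 held one, and chance gives about 1 in 20. The log2 injured to naive ratio was lowest in cKO-131 for Timp1 (1.38) and Arg2 (0.35), and highest in cKO-163 for Atf3 (2.12). Avil was lowest in cKO-131 on the naive side (83.4 CPM) and on the injured side (88.8 CPM). Without cKO-131 Timp1 and Arg2 still passed, as did Atf3 without cKO-163.

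The genotypes differed in the injury effect by edgeR's test of the difference for these named genes, as cKO effect minus wt effect on the log2 scale. Higher in cKO were Chodl (1.90), Kcng4 (1.55), Pcdh18 (1.16), Casr (1.10), Racgap1 (1.08), Mrvi1 (1.06) and Gprc5c (0.99). Lower in cKO were Igfn1 (-6.06), Slc6a4 (-3.98), Fgf3 (-3.92), Tmem88b (-3.65), Acvr1c (-3.44), Wfdc3 (-3.11), Gpr151 (-3.08) and Car3 (-2.97). Igfn1 had only 31 counts over the naive and 35 over the injured cKO libraries, so the size of its difference is uncertain. Igfn1 and Fgf3 were too low to be tested within cKO. Casr did not pass without wt-139, wt-175, wt-176, cKO-193, cKO-163, cKO-156, cKO-152 or cKO-130 (adjusted p of 0.0512 to 0.0653). Fgf3 had 12 counts over the naive cKO libraries and did not pass without cKO-152, cKO-156, cKO-163, cKO-193, cKO-194, wt-139, wt-172 or wt-175 (0.0513 to 0.106). The 13 besides Casr and Fgf3 passed with any 1 of the 17 mice left out.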

How the results depend on the processing

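Genes passing between the sides in cKO (2814; 1327 higher, 1487 lower) numbered 786, 524 and 262 without the replicate block, and 1643 in all with 709 lower when all 34 libraries were fitted with the block. They numbered 876, 617 and 259 within the mice of low ribosomal share, 405, 306 and 99 within those of high share, 650, 400 and 250 within females, and 80, 74 and 6 within males. Subsets hold fewer mice. With 1 mouse left out they ran from 1668 to 3211, from 858 to 1452 and from 750 to 1759. Rises of at least 2-fold (168) numbered 265 without a filter, 82 at high ribosomal share, 103 in females and 50 in males. Falls of at least 2-fold (10) numbered 3 without the block, 5 at low and 3 at high ribosomal share and 0 in males, and 4 to 23 with 1 mouse left out.

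A difference between genotypes passed for 7.53% of genes tested (635 higher, 839 lower). It passed for 2.84% (136 and 420) without the block, 0.0152% (1 and 2) at low ribosomal share, 0.37% (18 and 55) at high share, 1.91% (137 and 251) among Cre-positive mice, 0.786% (44 and 112) in females and 0% (0 and 0) in males. DESeq2 gave 1025 higher. The 3 Cre-positive wt mice are also the 3 wt males, and the 6 wt females are Cre-negative, so Cre and sex cannot be told apart among wt. With 1 mouse left out the share ran from 5.11% to 10.1%, the higher from 407 to 858 (407 without cKO-163, 423 without wt-139, 410 without wt-175) and the lower from 571 to 1099. The sex difference stayed at 0 with each mouse left out. The mean slope of cKO less that of wt was -0.575 (two-sided exact permutation p = 0.000123, n = 8 and 9), between -0.627 and -0.516 with 1 mouse left out, and -0.645 at low ribosomal share, where 3 mice against 3 cannot go below an exact permutation p of 0.1. Its genes were chosen in wt, so the slope measures how far a mouse showed the wt response. Genes that moved only in cKO do not enter it.

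The 20 largest named rises and falls were refitted in 19 ways. They had been chosen in the same data for passing with the same sign in every cKO mouse. That choice favours passing and makes a change of sign in fits of fewer mice unlikely. The counts that follow are therefore no independent test of stability. Of 380 values 353 stayed past the threshold, 27 did not (13 of them in males), and 0 changed sign. With 1 mouse left out all 160 stayed. The cause of the other changes was not tested.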
